A study of Mus musculus with 24 samples.

Results

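The genes described here are 10 regulators of the cell cycle, among them those that hold the mouse egg in metaphase of meiosis II (MII) or release it at fertilization. They were chosen by symbol and matched to Ensembl identifiers, and all 10 were found among the 55471 annotated genes. They comprise the arrest kinase *Mos*, the APC/C inhibitor *Fbxo43* (Emi2), the CDK1 inhibitory kinase *Wee2*, the kinase *Cdk1* with the cyclins *Ccna2*, *Ccnb1*, *Ccnb2* and *Ccnb3*, the phosphatase *Cdc25b* and the kinase *Plk1*. Of the libraries, 18 came from SLIM-seq, an m6A immunoprecipitation (IP) for small samples. At each of 3 stages, namely MII, the late 1-cell embryo (L1C) and the late 2-cell embryo (L2C), there were 3 IP and 3 input libraries. The input was RNA of the same batches without IP, and it served as the RNA-seq of its stage. A further 6 libraries came from L2C embryos of a *Ythdc1* knockdown. For 3 of them (KD), the zygotes had received Cas13d mRNA together with 3 crRNAs that target *Ythdc1*, and for the other 3 (Ctrl, labelled NC) the injection held the Cas13d mRNA without crRNA. YTHDC1 is a nuclear protein that binds m6A.

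All oocytes and embryos came from wild-type B6D2F1 females of 8 weeks of age that were superovulated with PMSG and hCG. MII oocytes were collected 14 to 16 h after hCG, L1C embryos at 27 to 29 h and L2C embryos at 48 to 50 h. Zygotes of the knockdown experiment were injected before pronuclei were well visible and were grown to L2C, so both of its groups carried Cas13d. Libraries of a group are labelled as separate samples, but nothing states that they came from separate collections of animals, so P values measure the spread between these samples. All 3 replicates of each SLIM-seq stage were fitted. A fit on fewer libraries (replicates 1 and 2 of MII and L1C, and 2 and 3 of L2C) was added after the data were seen, and calls of the 10 genes that changed with these 2 replicates a stage are named beside the values. SLIM-seq libraries held 11107421 to 39739950 estimated counts and the complete libraries of the KD experiment 8696476 to 14500548 counts.

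A mammalian egg waits for the sperm in metaphase II with high activity of the complex of CDK1 and cyclin B. MOS starts a MAPK cascade, and EMI2 blocks the anaphase-promoting complex (APC/C), the ubiquitin ligase that marks cyclin B for destruction. The calcium signal of fertilization leads to the destruction of EMI2, a step for which PLK1 prepares it, and WEE2 phosphorylates CDK1 and so lowers its activity. The fertilized egg then replaces maternal transcripts with products of its own genome, of which the main wave starts at the 2-cell stage in the mouse.

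On GRCm38, the arrest genes were annotated at chr4:3870657-3872105 (*Mos*, minus strand, 1 exon without introns), chr15:36150060-36164884 (*Fbxo43*, minus strand) and chr6:40439088-40466813 (*Wee2*, plus strand). *Cdk1* lay at chr10:69335146-69352938, *Ccna2* at chr3:36564865-36572150, *Ccnb1* at chr13:100778650-100786570, *Ccnb2* at chr9:70407692-70421547 and *Ccnb3* at chrX:6979652-7041619, all on the minus strand. *Cdc25b* lay at chr2:131186949-131198497 and *Plk1* at chr7:122159439-122169873, both on the plus strand.

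Promoters are shown for *Cdk1* and *Ccnb2*, since the products work in the same complex while the RNA of *Cdk1* went up and that of *Ccnb2* went down between MII and L2C. Each sequence holds the 250 bases before the RefSeq start on GRCm38.p6, written 5′ to 3′ on the strand of the gene. Capitals mark CCAAT and TTTGAA on either strand (ATTGG and TTCAAA are the same letters read from the other strand), 2 motifs that are known from promoters of cell cycle genes. *Cdk1* is at chr10:69352913-69353162 and *Ccnb2* at chr9:70421555-70421804, and the capitals of both motifs do not overlap.
Cdk1: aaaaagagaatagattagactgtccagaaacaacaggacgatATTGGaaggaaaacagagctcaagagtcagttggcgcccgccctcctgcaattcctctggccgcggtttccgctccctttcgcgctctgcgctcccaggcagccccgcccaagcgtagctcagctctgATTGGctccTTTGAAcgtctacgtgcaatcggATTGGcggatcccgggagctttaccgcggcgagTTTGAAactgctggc
Ccnb2: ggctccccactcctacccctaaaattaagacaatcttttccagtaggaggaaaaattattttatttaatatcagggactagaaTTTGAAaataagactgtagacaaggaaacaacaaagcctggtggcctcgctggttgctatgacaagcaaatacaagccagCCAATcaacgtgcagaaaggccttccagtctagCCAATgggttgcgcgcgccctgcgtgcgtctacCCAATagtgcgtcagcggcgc
Both motifs were present in both windows, with 3 CCAAT and 2 TTTGAA in *Cdk1* and 3 CCAAT and 1 TTTGAA in *Ccnb2*. Of 27025 promoters of the same length, 34.5% held CCAAT, 16.3% held TTTGAA and 5.73% held both. *Ccnb1* had 2 CCAAT, *Wee2*, *Cdc25b* and *Plk1* had 1 each, *Ccnb3* had none, and none of these 5 held TTTGAA. The table of promoters matched 7 of the 10 genes and has no entry for *Mos*, *Fbxo43* and *Ccna2*.

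The letters GGACT are the best known sequence context of m6A. Windows of 25 bases around GGACT (in capitals) are shown for *Cdk1*, whose RNA was higher in IP than in input at each stage, and for *Fbxo43* and *Plk1*, whose RNA was lower in IP at each stage. They were read 5′ to 3′ from the mRNA with the longest coding sequence in GENCODE M21 (GRCm38).
Cdk1, coding, chr10:69345149-69345173: tgctcatgcaGGACTccaggctgta
Cdk1, coding, chr10:69345092-69345116: agaagtacctGGACTccatccctcc
Cdk1, coding, chr10:69340557-69340581: agtccctgcaGGACTacaagaacac
Cdk1, 3′ untranslated, chr10:69338375-69338399: actgtcatctGGACTtttcttaatt
Cdk1, 3′ untranslated, chr10:69336446-69336470: aaacgatcttGGACTgtaaaaacct
Cdk1, 3′ untranslated, chr10:69336094-69336118: taaccccagcGGACTgtgacaagct
Fbxo43, coding, chr15:36163043-36163067: gaagcaatatGGACTcctctgctgt
Fbxo43, coding, chr15:36161939-36161963: taagctttaaGGACTtatcaaatac
Fbxo43, coding, chr15:36161794-36161818: tgttctcgcaGGACTgattggcaag
Fbxo43, 3′ untranslated, chr15:36150624-36150648: gtgtaagagaGGACTcttgttttgc
Plk1, coding, chr7:122168608-122168632: gcaagtgggtGGACTattcggacaa
Plk1, coding, chr7:122169439-122169463: acgagaagagGGACTtccaaacgta
Plk1, 3′ untranslated, chr7:122169594-122169618: tctctccttcGGACTggtgcccctt
Plk1, 3′ untranslated, chr7:122169817-122169841: tattaaattgGGACTgctctttcct
Per kb of mRNA, *Cdk1* had 1.37 GGACT, *Fbxo43* 0.991 and *Plk1* 1.82, against a median of 1.05 over 15181 mRNAs of the genes tested (quartiles 0.621 and 1.55). *Ccnb1* had the lowest density of the 10 with a single GGACT (0.402 per kb), and *Plk1* the highest. Among all these mRNAs, 90.5% held at least 1 GGACT, as did all 10 genes described here. A match is no measured m6A site, since IP and input are counted per gene.

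To see how these transcripts changed across fertilization, their RNA levels were compared in the 9 input libraries. A level is given in CPM (counts scaled to the library's total), with TMM factors computed over the 18 SLIM-seq libraries, and is a share of the sequenced RNA and not an amount per embryo. At an adjusted p under 0.05 (edgeR quasi-likelihood test, BH over all genes tested), 4 of the 10 genes rose and 5 fell from MII to L1C, where 56.2% of all 19903 genes tested changed (31.9% higher, 24.3% lower). From L1C to L2C, 2 rose and 8 fell, with 82.9% of all genes changed (44.1% higher, 38.8% lower). Between MII and L2C, 2 genes were higher and 8 lower, with 84.6% changed (47.5% higher, 37.1% lower). A change was thus the usual case for any gene. The median log2 change from MII to L2C was -1.78 among them and 0.40 over all genes tested.

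*Mos* fell furthest of the 10 genes between MII and L2C. It was at 146, 181 and 182 CPM in MII oocytes, at 9.69, 14.0 and 12.9 CPM in L1C embryos and at 3.73, 3.52 and 4.49 CPM in L2C embryos. The stages did not overlap, and most of the fall lay between MII and L1C. The log2 change was -3.71 (SE 0.18, edgeR adjusted p = 9.34e-10) from MII to L1C and -1.39 (SE 0.18, adjusted p = 4.59e-06) from L1C to L2C. In the fit, whose scaling differs from that of the CPM, *Mos* was 34.4-fold lower at L2C than at MII.

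*Fbxo43*, the other arrest factor, kept its level until L1C. It was at 396, 394 and 408 CPM at MII, at 376, 325 and 345 CPM at L1C and at 27.1, 30.9 and 27.1 CPM at L2C. The L1C libraries all lay below the MII libraries, but the difference did not pass the test (log2 -0.11, 95% interval -0.33 to 0.11, adjusted p = 0.42). By L2C the RNA then fell by 3.38 on the log2 scale (SE 0.12, adjusted p = 1.03e-11). *Mos* and *Fbxo43* were therefore both low at L2C and far apart at L1C.

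*Wee2*, whose product puts the brake on CDK1, was at 556, 480 and 499 CPM at MII, at 721, 536 and 592 CPM at L1C and at 152, 138 and 169 CPM at L2C. The MII and L1C libraries overlapped, and the small rise between them (log2 0.35, SE 0.13, edgeR adjusted p = 0.031) was lost with DESeq2 (adjusted p = 0.065), with no filter (adjusted p = 0.081) and without any of 4 single libraries: adjusted p = 0.12 without MII replicate 2, 0.089 without MII replicate 3, 0.11 without L1C replicate 1 and 0.050 without L1C replicate 3. It was also lost with 2 replicates a stage (adjusted p = 0.14). By L2C *Wee2* fell 3.41-fold below L1C in the fit (log2 -1.77, SE 0.13, adjusted p = 1.31e-08).

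*Cdk1* went the opposite way. MII inputs held 53, 43 and 45 counts of it, or 2.79, 2.58 and 3.02 CPM. L1C inputs were at 57.9, 46.8 and 59.5 CPM and L2C inputs at 395, 406 and 422 CPM, so that every library of a later stage exceeded every library of an earlier one. The log2 change was 4.38 (SE 0.15, adjusted p = 8.08e-11) from MII to L1C and 3.14 (SE 0.13, adjusted p = 3.04e-11) from L1C to L2C. Together this was a 183-fold increase in the fit, whose scaling differs from that of the CPM. In the KD experiment, which counted exons only, Ctrl embryos at L2C held *Cdk1* at 427 to 435 CPM, close to the L2C inputs, although both tables were scaled on their own.

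**Figure D1:**
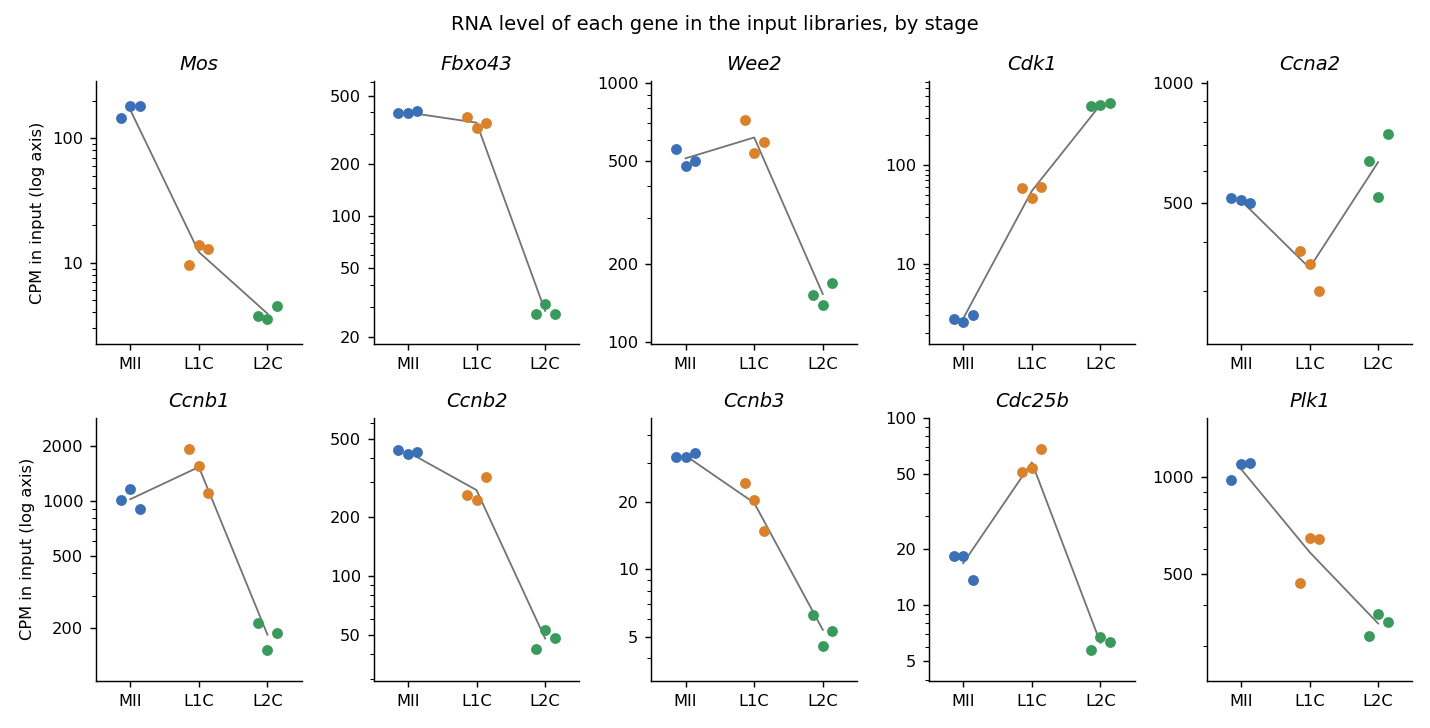
RNA level (CPM, log axis) of the 10 genes in the 3 input libraries each of MII oocytes, L1C and L2C embryos. A point is a library and the line joins the stage means. *Mos* fell from a mean of 170 to 3.91 CPM, *Cdk1* went from 2.80 to 408 CPM, and *Ccna2* was lowest at L1C (343 CPM).

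Among the cyclins, *Ccna2* was the only one of the 4 that was higher at L2C than at MII. Cyclin A2 partners CDK1 and CDK2 in DNA replication and entry into mitosis. It was at 513, 508 and 500.5 CPM at MII, at 378, 352 and 301 CPM at L1C and at 638, 518 and 743 CPM at L2C, a dip followed by a rise with no overlap between any stages. The log2 change was -0.48 (SE 0.13, adjusted p = 0.0076) from MII to L1C and 1.12 (SE 0.14, adjusted p = 2.36e-06) from L1C to L2C. The fall to L1C was lost with 2 replicates a stage (adjusted p = 0.092). Its span overlaps *Exosc9* on the opposite strand over 863 bases, with 12.5% of the exon bases of *Ccna2* shared, and without strand the reads of both genes cannot be told apart there.

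*Ccnb1*, the main cyclin of the arrest, was at 1006, 1153 and 897 CPM at MII, at 1930, 1559 and 1103 CPM at L1C and at 213, 152 and 189 CPM at L2C. L1C libraries were spread widely and overlapped those of MII, while L2C libraries lay far below both. The change was 0.67 (SE 0.18, adjusted p = 0.0059) from MII to L1C and -2.81 (SE 0.19, adjusted p = 4.64e-09) from L1C to L2C on the log2 scale. These values depend on pseudogenes, as described further on.

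*Ccnb2* and *Ccnb3* fell at each step. *Ccnb2*, a cyclin B that can stand in for *Ccnb1* in oocytes, was at 439, 417 and 429 CPM at MII, at 260.0, 243 and 319 CPM at L1C and at 42.6, 53.2 and 48.2 CPM at L2C. Its stages did not overlap, and the log2 change was -0.56 (SE 0.13, adjusted p = 0.0026) to L1C and -2.27 (SE 0.14, adjusted p = 1.37e-09) to L2C. *Ccnb3*, a cyclin needed for the exit from meiosis I, was at 31.7, 31.8 and 33.1 CPM at MII, at 24.2, 20.4 and 14.8 CPM at L1C and at 6.25, 4.56 and 5.29 CPM at L2C. Its log2 changes were -0.61 (SE 0.18, adjusted p = 0.011) and -1.64 (SE 0.19, adjusted p = 1.65e-06), of which the first was lost with 2 replicates a stage (adjusted p = 0.12).

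*Cdc25b*, the phosphatase that removes the inhibitory phosphate from CDK1, peaked at L1C. It was at 18.4, 18.2 and 13.7 CPM at MII, at 51.7, 54.0 and 68.3 CPM at L1C and at 5.79, 6.72 and 6.35 CPM at L2C. The 3 stages were fully apart, with a rise of 1.88 (SE 0.17, adjusted p = 6.24e-07) and then a fall of -2.97 (SE 0.18, adjusted p = 1.12e-09) on the log2 scale. *Plk1* was at 984, 1098 and 1109 CPM at MII, at 468, 648 and 643 CPM at L1C and at 322, 377 and 355 CPM at L2C. It thus fell in 2 modest steps of -0.77 (SE 0.14, adjusted p = 0.00037) and -0.50 (SE 0.14, adjusted p = 0.0045), of which the second was lost with 2 replicates a stage (adjusted p = 0.091).

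For an order of the genes within a stage, CPM was divided by the exon length in kb. This divisor is approximate, since SLIM-seq counts were taken on the whole gene span, which lacks the exon junctions of a spliced mRNA. For *Cdc25b*, 447 of the 3134 stretches of 31 bases in its mRNAs were absent from its span, and for *Mos* 0 of 1419. At MII, *Plk1* was highest with 484 ± 31.4 CPM per kb (SD, n = 3), and *Ccnb2* (280 ± 7.03) and *Ccnb1* (242 ± 30.5) followed with overlapping libraries. *Wee2* (163 ± 12.6) came next, then *Ccna2* (124 ± 1.54), *Mos* (117 ± 14.2) and *Fbxo43* (98.9 ± 1.85), each overlapping the next. *Ccnb3* (7.05 ± 0.177), *Cdc25b* (4.50 ± 0.718) and *Cdk1* (0.567 ± 0.0446) were the lowest and did not overlap. At L1C, *Ccnb1* (363 ± 98.3), *Plk1* (267 ± 46.6), *Wee2* (196 ± 30.3) and *Ccnb2* (179 ± 25.9) led, each overlapping the next. *Fbxo43* (86.4 ± 6.36) and *Ccna2* (84.1 ± 9.60) followed with overlap, then *Cdc25b* (15.6 ± 2.42), *Cdk1* (11.1 CPM per kb, libraries from 9.49 to 12.1) and *Mos* (8.43 ± 1.56), of which the last pair overlapped, and *Ccnb3* (4.34 ± 1.03).

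At L2C the order per exon kb was changed. *Plk1* (160 ± 12.5 CPM per kb) and *Ccna2* (155 ± 27.6) overlapped, and *Cdk1* (82.6 ± 2.79) had moved from the last to the third place. *Wee2* (48.8 ± 4.92) and *Ccnb1* (43.8 ± 7.24) overlapped, and *Ccnb2* (31.3 ± 3.47), *Fbxo43* (7.03 ± 0.548), *Mos* (2.70 ± 0.351), *Cdc25b* (1.69 ± 0.126) and *Ccnb3* (1.17 ± 0.186) followed without overlap. In the deposited TPM, which is divided by the length of the whole gene span, *Mos* ranked 1 at MII and *Plk1* ranked 3, since *Mos* has no intron. The order between genes therefore depends on the length used, while a comparison of 1 gene between stages does not.

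*Ccnb1* shares 31-base words with 6 annotated pseudogenes, which touches its values. Processed pseudogenes are copies of a spliced mRNA, so they hold exon junctions that the genomic span of *Ccnb1*, the target in the SLIM-seq quantification, lacks. Of the 8 junctions of its mRNA, the 30-base windows of 6 were found in *Ccnb1-ps*, 5 each in *Gm12856* and *Gm8416*, and none in the span of *Ccnb1*. Examples from *Ccnb1-ps* on chromosome 7 are shown 5′ to 3′ on its strand (GRCm38), with capitals for the 4 bases over the junction.
Junction of exons 1 and 2, chr7:42107150-42107179: ctcagggtcactaGGAAcacgaaaattaac
Junction of exons 4 and 5, chr7:42106634-42106663: ctccgacaactggAGGAagagcagtcagtt
Junction of exons 7 and 8, chr7:42106097-42106126: gacaacggtgaatGGACaccaactctgcag
Of the counts on *Ccnb1* and the pseudogenes together, the pseudogenes took 25.6% ± 3.60 (SD, n = 3) at MII, 14.8% ± 4.04 at L1C and 45.4% ± 5.10 at L2C in the inputs, nearly all of it on *Ccnb1-ps*. In the exon counts of the KD experiment, where reads were aligned with spliced gaps, they held 1.59% to 1.88% in the 5 complete libraries. With the pseudogene counts added to *Ccnb1*, the log2 change was 0.47 (SE 0.17, adjusted p = 0.026) from MII to L1C, -2.16 (SE 0.17, adjusted p = 2.62e-08) from L1C to L2C and -1.69 (SE 0.17, adjusted p = 3.08e-07) from MII to L2C. Direction and call were the same as for *Ccnb1* alone, but the fall to L2C was smaller. For other members, the pseudogene *Plk-ps1* held at most 0.128% of the *Plk1* counts in any SLIM-seq library, and the coding gene *Cphx3* held 44 of the 1501 31-base words of the *Ccnb2* mRNA.

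**Figure D2:**
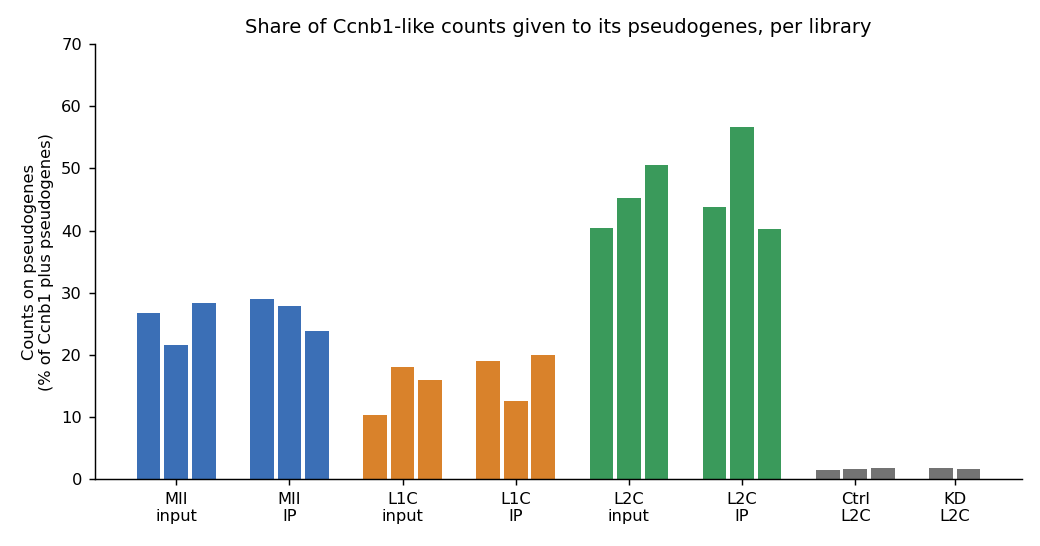
Counts on 6 annotated pseudogenes as a percentage of the counts on *Ccnb1* and these pseudogenes together. A bar is a library, grouped by stage and kind for SLIM-seq and by Ctrl and KD for the 5 complete libraries of the KD experiment. The share was 40.4% to 50.6% in L2C inputs and below 2% in the KD experiment.

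Genes with the most similar course were sought among 8445 protein-coding genes with a mean of at least 10 CPM over the inputs, by the distance between centred stage means of log2(CPM + 1). For *Mos* the nearest were *Lhpp* (44.0, 9.82 and 1.23 CPM at MII, L1C and L2C), *Bin2* (301, 36.4 and 8.66 CPM) and *Abhd16a* (790.0, 102 and 31.5 CPM), at distances of 0.41 to 0.53. *Wee2* had much closer neighbours in *Rnf123*, *Nrg4* and *Magi2*, at distances of 0.01 to 0.03. For *Cdk1* they were *Zscan4f* (0.426, 20.7 and 134 CPM), *Gm4027* (0.0527, 10.0 and 97.7 CPM) and *Usp17lc* (0.123, 22.2 and 106 CPM), at distances of 0.17 to 0.49. These 3 genes were below 1 CPM at MII, where *Cdk1* was at 2.80 CPM, so their distances depend on the 1 CPM added before the log. *Zscan4f* is a known transcript of the 2-cell embryo. *Zscan4f* and *Usp17lc* belong to families of near-identical copies, so their counts are uncertain.

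Marker sums followed the labelled stages. Summed over 10 oocyte transcripts, inputs held 25603 to 26485 CPM at MII, 8564 to 8792 at L1C and 866 to 895 at L2C, and over 8 transcripts of the 2-cell embryo 34.9 to 43.2, 107 to 147 and 369 to 506 CPM. The 10 cumulus cell markers summed to 25.7 to 29.4 CPM at MII, 12.9 to 14.0 at L1C and 5.59 to 6.95 at L2C, with *Ptx3* at 0 in every input. The 5 sperm markers summed to 2.91 to 3.69 CPM at MII and L1C and to 53.8 to 69.9 CPM at L2C. The part of these lists in the levels above was not tested, and in pooled embryos fewer cells of a kind and less RNA per cell cannot be told apart.

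Then IP was compared with input at each stage, to see which of the 10 RNAs were retained by the m6A antibody. The value is the log2 ratio of IP to input relative to the bulk of the transcripts, and scaling to library size alone moved the median of all 21950 genes tested from 0 to 0.20 at MII, from 0.07 to 0.37 at L1C and from 0.09 to 0.34 at L2C. At an adjusted p under 0.05, 1 of the 10 genes was higher and 6 were lower in IP at MII, where 38.6% of all genes were called (17.7% higher, 21% lower). At L1C 2 were higher and 3 lower, with 33.9% of all genes called (15.8% higher, 18.2% lower). At L2C again 2 were higher and 3 lower, with 44% called (22% in each direction). The medians of the 10 genes were -0.56, -0.16 and 0.06, against 0, 0.07 and 0.09 over all genes. The balance of higher and lower calls depends on this scaling: of all calls, 45.7% were higher at MII, 46.5% at L1C and 50.0% at L2C with TMM, and 61.7%, 70.9% and 67.6% with library size alone. With library size alone, 1 of the 10 genes was higher and 5 lower at MII, 4 higher and 3 lower at L1C, and 5 higher and 3 lower at L2C.

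*Cdk1* was higher in IP than in input at every stage. The 3 IP libraries stood at log2 1.27, 0.29 and 0.97 over the mean input at MII, at 0.67, 0.56 and 0.40 at L1C and at 0.61, 0.68 and 0.65 at L2C. All 9 IP libraries lay above their inputs, with the widest spread at MII, where the counts were lowest. The fitted ratio was 0.89 (SE 0.20, edgeR adjusted p = 0.0012) at MII, 0.54 (SE 0.15, adjusted p = 0.0079) at L1C and 0.65 (SE 0.15, adjusted p = 0.0015) at L2C. The call at L1C was lost without L1C input replicate 2 (adjusted p = 0.052) or without L1C IP replicate 1 (adjusted p = 0.054). Under a simpler form of the published rule for tagged genes, applied to the edgeR values (log2 above 0, unadjusted P under 0.05 and more than 1 count in each input, without its further conditions), *Cdk1* was called at all 3 stages, where 19.2%, 18.6% and 23.9% of all genes were. *Mos* at L1C and *Ccnb3* at L2C were the other members called under it.

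*Fbxo43* and *Plk1* were lower in IP at every stage. *Fbxo43* IP libraries stood at -1.61, -1.62 and -1.59 at MII, at -1.06, -1.11 and -1.11 at L1C and at -0.95, -0.60 and -0.67 at L2C, close together within a stage. The fitted ratio was -1.61 (SE 0.10, adjusted p = 5.76e-10), -1.09 (SE 0.10, adjusted p = 1.36e-07) and -0.74 (SE 0.11, adjusted p = 1.72e-05). *Plk1* stood at -0.99, -0.86 and -0.98 at MII, at -1.07, -1.10 and -0.68 at L1C and at -1.52, -1.99 and -1.64 at L2C. Its fitted ratio was -0.94 (SE 0.15, adjusted p = 3.85e-05), -0.93 (SE 0.15, adjusted p = 6.24e-05) and -1.70 (SE 0.15, adjusted p = 6.48e-08). The distance of *Fbxo43* from input shrank and that of *Plk1* grew, so the order of both genes was reversed at L2C.

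**Figure D3:**
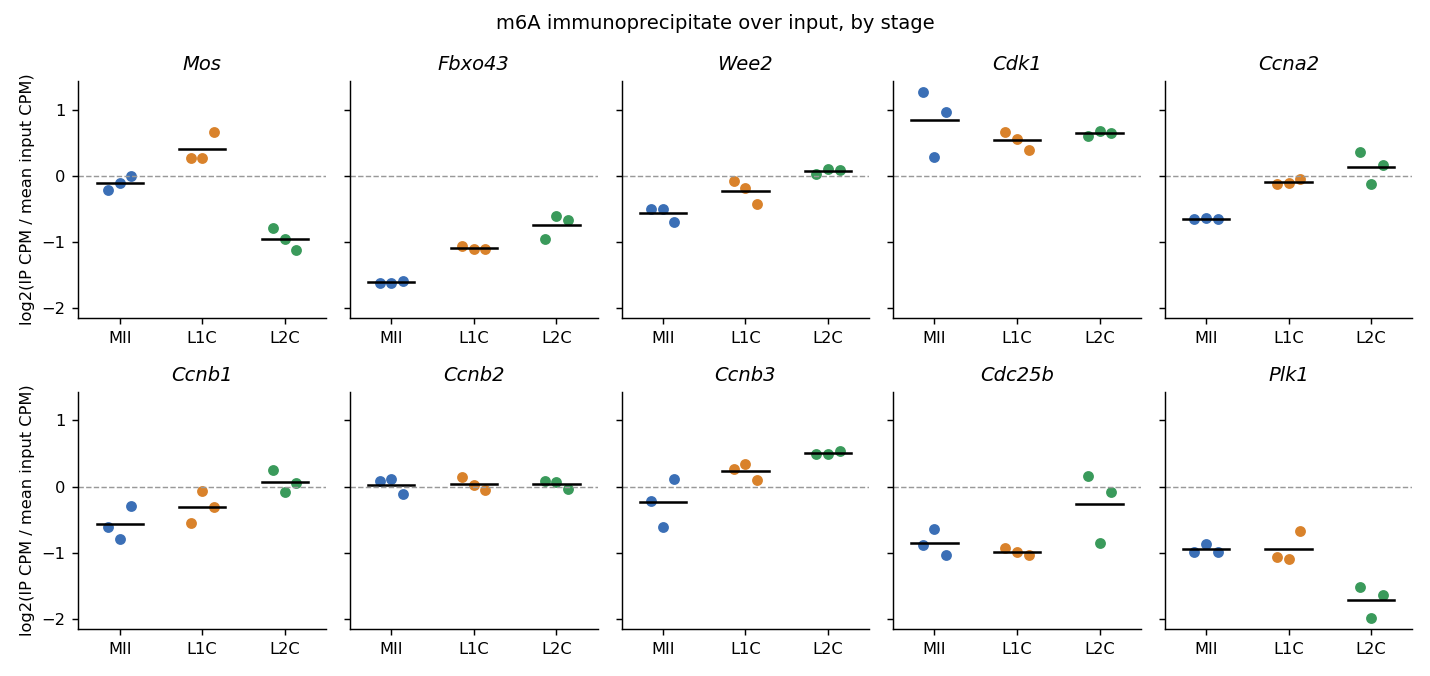
log2 ratio of each IP library to the mean of the 3 inputs of its stage, for the 10 genes at MII, L1C and L2C. Points are IP libraries, the solid line is their mean and the dashed line marks equal levels. *Cdk1* lay above the line in all 9 IP libraries, *Fbxo43* and *Plk1* below it in all 9, and *Mos* went from above the line at L1C to below it at L2C.

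*Mos* differed between stages. Its IP libraries stood at log2 -0.21, -0.10 and -0.0018 at MII, at 0.27, 0.27 and 0.67 at L1C and at -0.78, -0.95 and -1.11 at L2C. The fitted ratio was -0.10 (SE 0.15, adjusted p = 0.64) at MII, 0.42 (SE 0.16, adjusted p = 0.044) at L1C and -0.94 (SE 0.18, adjusted p = 0.00041) at L2C, where the L2C IP libraries held 116, 30 and 59 counts. The call at L1C rested on a narrow margin: it was lost with no filter (adjusted p = 0.061), with only L1C fitted (adjusted p = 0.12), with the replicate block (adjusted p = 0.051), with 2 replicates a stage (log2 0.31, adjusted p = 0.30) and for 11 of the 18 libraries when left out, where the ratio went down to 0.27 without L1C input replicate 1 (adjusted p = 0.21) or without L1C IP replicate 3 (adjusted p = 0.24). Those 11 included L1C input replicates 1 and 3 and L1C IP replicates 1 and 3. The change of the *Mos* ratio from L1C to L2C was itself tested and was -1.36 (SE 0.24, adjusted p = 0.0017). Between those stages 9.47% of all genes changed (5% higher, 4.47% lower). Of these calls 52.8% were higher with TMM, against 44.8% of the calls with library size alone.

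*Wee2*, *Ccna2* and *Ccnb1* were lower in IP at MII and did not pass the test afterwards. At MII the fitted log2 ratio was -0.56 (SE 0.12, adjusted p = 0.0012) for *Wee2*, -0.65 (SE 0.13, adjusted p = 0.00061) for *Ccna2* and -0.55 (SE 0.19, adjusted p = 0.027) for *Ccnb1*. *Ccna2* IP libraries were at 321, 325 and 323 CPM at MII against inputs of 500.5 to 513, and at 812, 585 and 707 CPM at L2C against inputs of 518 to 743, which overlapped. At L2C the ratios were 0.08 (95% interval -0.17 to 0.32) for *Wee2*, 0.15 (-0.11 to 0.41) for *Ccna2* and 0.08 (-0.29 to 0.45) for *Ccnb1*. With library size alone, *Ccna2* (0.40, adjusted p = 0.012) and *Wee2* (0.33, adjusted p = 0.029) were called higher at L2C. The *Ccnb1* call at MII was lost with library size alone (log2 -0.31, adjusted p = 0.20) and without 1 of 4 libraries: adjusted p = 0.054 without MII input replicate 1, 0.12 without MII input replicate 2, 0.082 without MII IP replicate 1 and 0.12 without MII IP replicate 2. With pseudogene counts added it was -0.52 (SE 0.17, adjusted p = 0.020).

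*Cdc25b* was lower in IP at MII (log2 -0.84, SE 0.20, adjusted p = 0.0021) and at L1C (-0.98, SE 0.19, adjusted p = 0.00040). At L2C its IP libraries scattered around the input at log2 0.16, -0.84 and -0.09. *Ccnb3* IP libraries stood at -0.22, -0.61 and 0.12 at MII, at 0.26, 0.33 and 0.11 at L1C and at 0.49, 0.49 and 0.54 at L2C. At L2C the fitted ratio of *Ccnb3* was 0.50 (SE 0.19, adjusted p = 0.039). The call was lost with no filter (adjusted p = 0.076) and for 11 of the 18 libraries when left out. These included the 3 L2C IP libraries and L2C input replicates 2 and 3. The ratio was lowest, at 0.40 (adjusted p = 0.15), without L2C input replicate 2. With library size alone *Ccnb3* was also called at L1C (0.54, adjusted p = 0.028). *Ccnb2* was within 0.05 of input at each stage under TMM, with intervals of -0.20 to 0.26 at MII, -0.19 to 0.27 at L1C and -0.19 to 0.27 at L2C. With library size alone it was called higher at L1C (0.34, adjusted p = 0.022) and L2C (0.30, adjusted p = 0.043).

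Changes of the IP ratio between MII and L2C passed the test for 5 of the 10 genes, where 20.3% of all genes changed (11.1% higher, 9.21% lower). The ratio rose for *Fbxo43* (log2 0.87, SE 0.15, adjusted p = 0.00028), *Ccna2* (0.80, SE 0.19, adjusted p = 0.0047) and *Wee2* (0.64, SE 0.18, adjusted p = 0.014). It fell for *Mos* (-0.84, SE 0.23, adjusted p = 0.015) and *Plk1* (-0.75, SE 0.21, adjusted p = 0.014). The *Mos* call was lost without L2C input replicate 3 (adjusted p = 0.052) or without L2C IP replicate 3 (adjusted p = 0.056). With 2 replicates a stage, the calls of *Ccna2* (adjusted p = 0.081) and *Wee2* (adjusted p = 0.11) were lost, while *Ccnb3* (1.01, adjusted p = 0.029) and *Ccnb1* (0.88, adjusted p = 0.048) passed. *Ccnb3* also passed with protein-coding genes only (adjusted p = 0.048) and *Ccnb1* with no filter (adjusted p = 0.037). Leaving out L1C input replicate 3 (adjusted p = 0.044), L2C input replicate 1 (0.048) or MII IP replicate 3 (0.021) made *Ccnb3* pass as well. Between MII and L1C, where 7.33% of all genes changed (3.13% higher, 4.21% lower, or 42.6% of calls higher with TMM and 53.3% with library size alone), *Fbxo43* alone passed (0.52, SE 0.14, adjusted p = 0.032), and *Ccna2* as well with library size alone (0.62, adjusted p = 0.033), with DESeq2 (0.53, adjusted p = 0.013) and with only those stages fitted (0.47, adjusted p = 0.047). The *Fbxo43* call was lost with no filter (adjusted p = 0.18), with only those stages fitted (adjusted p = 0.057), with the replicate block (adjusted p = 0.075) and with 2 replicates a stage (adjusted p = 0.23). It was also lost for 11 of the 18 libraries when left out, with adjusted p up to 0.089. Those 11 were all MII or L1C libraries, the ones that this change compares. From L1C to L2C, *Plk1* fell (-0.76, SE 0.21, adjusted p = 0.026) besides *Mos*. The *Plk1* call was lost with the replicate block (adjusted p = 0.050), with 2 replicates a stage (adjusted p = 0.081) and without L1C input replicate 1 (adjusted p = 0.062), L2C input replicate 2 (0.060) or 3 (0.051), L1C IP replicate 3 (0.075), or L2C IP replicate 2 (0.055) or 3 (0.050). The rise of *Cdc25b* from L1C to L2C (0.82, SE 0.27, adjusted p = 0.063) did not pass, but it did with DESeq2 (0.77, adjusted p = 0.027), with protein-coding genes only (0.85, adjusted p = 0.033) and without L2C IP replicate 2 (1.03, adjusted p = 0.0091), as did its change from MII to L2C without that library (0.88, adjusted p = 0.012). *Cdk1* showed no change of its ratio that passed the test, with -0.25 from MII to L2C and an interval of -0.73 to 0.23.

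To see whether these transcripts depend on the m6A reader YTHDC1, KD and Ctrl embryos were compared at L2C. *Ythdc1* itself was at 523, 541 and 519 CPM in KD and at 1080, 1098 and 994 CPM in Ctrl in the merged table of counts, 2.01-fold lower in KD (SE of the log2 change 0.0622, edgeR adjusted p = 1.34e-10). The rows of the merged table end on chromosome 7, so that it holds 5 of the 10 genes with 3 KD and 3 Ctrl libraries. The other 5 genes were read from the complete files, which leaves 2 KD and 3 Ctrl libraries, and CPM of both tables are on different scales. Among the 5 genes it holds, 2 were higher and 2 lower, where 70.9% of its 7433 genes tested were called (33.5% higher, 37.4% lower). Among the 5 others, 2 were higher and 1 lower, where 66.8% of 17074 genes were called (30.5% higher, 36.4% lower). With the published thresholds applied to the edgeR values (unadjusted P under 0.05 and a log2 change above 1 in size), *Cdc25b*, *Wee2* and *Ccnb3* were called, of 37.2% of the genes of the table, and none of the other 5, of 38.9% of all genes.

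*Wee2* and *Cdc25b*, which act on the same phosphate of CDK1 in opposite directions, were both lower in KD. *Wee2* was at 220.4, 189 and 217 CPM in KD and at 649, 623 and 610.0 CPM in Ctrl, 3.00-fold lower with a wide gap between the groups (log2 -1.59, SE 0.07, adjusted p = 2.83e-12). *Cdc25b* held 7, 14 and 11 counts in KD and 85, 51 and 28 in Ctrl, or 1.67, 3.90 and 2.13 against 15.1, 10.2 and 8.11 CPM. The groups did not overlap (log2 -2.16, SE 0.37, adjusted p = 3.75e-05), at few counts per library.

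*Ccnb3* was higher in KD, at 25.8, 23.4 and 23.8 CPM against 6.92, 11.0 and 7.82 CPM in Ctrl. This was a 2.83-fold difference (SE of the log2 change 0.21, adjusted p = 3.68e-06). *Ccna2* was at 1492, 1335 and 1463 CPM in KD and at 1196, 1199 and 1092 CPM in Ctrl, a small rise without overlap (log2 0.30, SE 0.06, adjusted p = 0.00033). *Mos* was at 7.65, 10.0 and 9.10 CPM in KD and at 8.87, 9.76 and 11.6 CPM in Ctrl, which overlapped (log2 -0.16, 95% interval -0.66 to 0.34, adjusted p = 0.58).

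*Cdk1* and *Ccnb1* were also slightly higher in KD. *Cdk1* was at 543 and 520.3 CPM in KD and at 435, 427 and 430.4 CPM in Ctrl (log2 0.30, SE 0.07, adjusted p = 0.0012). *Ccnb1* was at 1888 and 1777 CPM in KD and at 1425, 1396 and 1303 CPM in Ctrl (log2 0.41, SE 0.07, adjusted p = 5.28e-05). *Ccnb2* was at 50.3 and 52.1 against 43.9 to 46.3 CPM (log2 0.17, adjusted p = 0.14) and *Plk1* at 37.1 and 46.9 against 33.6 to 38.1 CPM (log2 0.20, adjusted p = 0.15), neither of which passed the test. For *Plk1* the call changed without KD replicate 1 (log2 0.37, adjusted p = 0.032), where the lone KD library was assumed to vary like the Ctrl libraries.

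*Fbxo43* was at 11.8 and 9.20 CPM in KD and at 12.9, 15.6 and 13.4 CPM in Ctrl. The fall of 0.41 on the log2 scale (SE 0.17) lay at the threshold (edgeR adjusted p = 0.0498) and was lost with DESeq2 (adjusted p = 0.17), without KD replicate 2 (log2 -0.23, adjusted p = 0.37), without Ctrl replicate 1 (adjusted p = 0.052) and without Ctrl replicate 2 (adjusted p = 0.18).

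**Figure D4:**
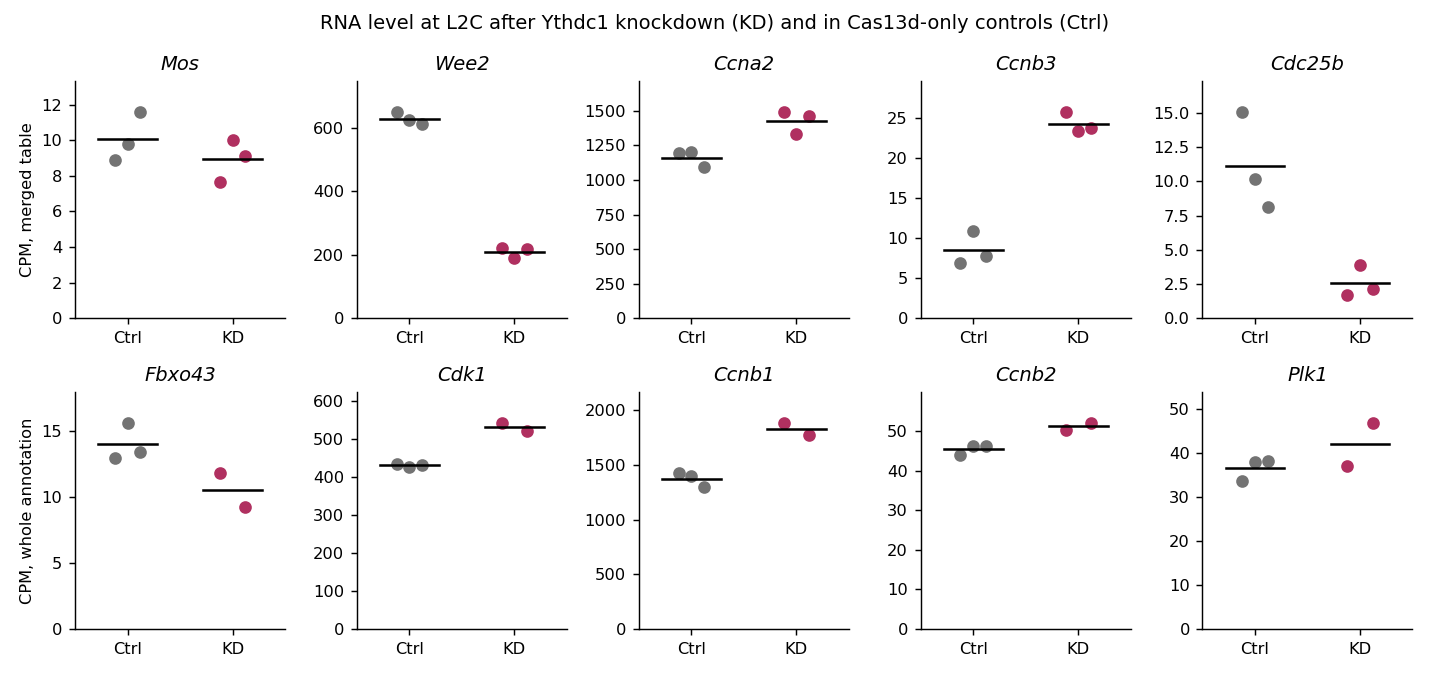
RNA level (CPM, linear axis from 0) at L2C in embryos with *Ythdc1* knockdown (KD) and in Cas13d-only controls (Ctrl). Points are libraries and horizontal lines are means. The upper row shows genes of the merged table (3 against 3) and the lower row genes of the complete files (3 Ctrl, 2 KD), which are on another CPM scale. *Wee2* was at 189 to 220.4 CPM in KD and at 610.0 to 649 CPM in Ctrl.

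Markers of the stage moved with the knockdown too. Over the 5 oocyte transcripts in the table the sum was 937 to 1000 CPM in KD and 1538 to 1572 CPM in Ctrl, and over 6 transcripts of the 2-cell embryo 521 to 595 against 2118 to 2248 CPM. The 4 cumulus cell markers of the table were at 20.3 to 24.4 CPM in KD and 16.5 to 24.3 CPM in Ctrl, with *Ptx3* and *Cd44* at 0 in both groups. The only sperm marker in the table, *Tnp1*, was at 0 in KD and at 0.869 to 1.24 CPM in Ctrl. The part of these differences in the results on the 10 genes was not tested.

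The SLIM-seq inputs and the Ctrl embryos were both at L2C, and their levels are set side by side here, each scaled within its own table. For 8 of the 10 genes the means differed by at most 2.03-fold. *Ythdc1*, which is not among the 10, was at 18.0 CPM in the inputs and at 406 CPM in Ctrl. *Plk1* was at 351 CPM in the inputs and at 36.5 CPM in Ctrl, and *Ccnb1* at 185 CPM in the inputs and at 1375 CPM in Ctrl. With its pseudogenes, *Ccnb1* summed to 339 CPM in the inputs and 1399 CPM in Ctrl. *Plk1* shares 7.09% of its exon bases with *Gm44985* on the opposite strand, and *Gm44985* had 0 counts in all 5 complete libraries of the KD experiment. The part of these properties in the difference was not tested.

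Partners of the 10 genes were read from 4 further lists. In the list of CDK1 control and other cyclins, 13 of 14 genes were tested. From MII to L1C, where 56.2% of all genes changed, 5 of them rose and 6 fell, with *Ccnf* (log2 2.81, SE 0.15, adjusted p = 2.53e-09) and *Cdc25c* (3.13, SE 0.30, adjusted p = 9.82e-07) at the smallest P values. From L1C to L2C, where 82.9% changed, 9 rose and 1 fell, with *Ccne1*, the cyclin of the start of DNA replication, up by 6.36 (SE 0.15, adjusted p = 5.75e-13) and *Cdc25c* by 5.03 (SE 0.23, adjusted p = 7.54e-11). The median log2 change from L1C to L2C was 1.41 in this list, 0.17 over all genes tested and -1.70 among the 10 genes. In IP, *Cks1b*, a small subunit of CDK complexes, was higher at each stage (0.84, 1.10 and 0.65), and *Ccnf* was lower at L1C (-1.24) and L2C (-1.90). From MII to L2C the ratio of *Ccnf* fell by 2.78 on the log2 scale (SE 0.21, adjusted p = 7.15e-08). In the complete KD files 2 of the 13 genes were higher and 3 lower, where 66.8% of all genes were called.

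Of the 7 genes of the pathway that MOS starts (all tested), 2 rose and 2 fell from MII to L1C (56.2% of all genes changed) and 1 rose and 4 fell from L1C to L2C (82.9% of all genes). *Map2k1* (MEK1), the kinase that MOS phosphorylates, fell by 2.23 on the log2 scale from L1C to L2C (SE 0.11, adjusted p = 1.82e-10). *Map2k2* went down by -2.30 (SE 0.21, adjusted p = 8.01e-07) and then up by 2.84 (SE 0.22, adjusted p = 1.60e-08). *Map2k1* was lower in IP at MII (-1.15, SE 0.09), L1C (-0.70, SE 0.09) and L2C (-0.39, SE 0.09), and this change of the ratio from MII to L2C was 0.76 (SE 0.13, adjusted p = 0.00029). In the complete KD files 3 of the 7 were higher, among them *Map2k1* (0.51, SE 0.11, adjusted p = 0.00051), and 2 lower, where 66.8% of all genes were called (30.5% higher, 36.4% lower). The merged table held 2 of them, *Rps6ka3*, which was lower (-0.96, SE 0.14, adjusted p = 9.82e-06), and *Rps6ka1*, which was higher (0.72, SE 0.14, adjusted p = 0.00018), where 70.9% of its genes were called.

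The list of APC/C subunits, activators, inhibitors and E2 enzymes had 19 genes, all tested. From MII to L1C 3 rose and 8 fell (56.2% of all genes changed), with *Fzr1* (CDH1, an activator of the APC/C) up by 2.25 (SE 0.19, adjusted p = 2.64e-07). From L1C to L2C 10 rose and 4 fell (82.9% of all genes), with the E2 enzyme *Ube2c* up by 3.10 (SE 0.17, adjusted p = 4.27e-10) and the activator *Cdc20* by 2.27 (SE 0.14, adjusted p = 1.80e-09). In IP 7 were higher and 7 lower at MII, and 5 higher and 9 lower at both L1C and L2C, where 38.6%, 33.9% and 44% of all genes were called. These counts depend on the scaling: with library size alone the higher and lower genes numbered 10 and 7 at MII, 9 and 7 at L1C, and at L2C 8 and 5. *Anapc5* was lower at all 3 stages (-1.04, -0.97 and -1.13). In the complete KD files 10 were higher and 3 lower, or 8 and 4 with library size alone, where 66.8% of all genes were called (30.5% higher, 36.4% lower), with *Anapc10* (1.09, SE 0.10, adjusted p = 1.25e-07) and *Cdc16* (1.17, SE 0.14, adjusted p = 2.44e-06) at the smallest P values.

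Of the 11 genes of Greatwall, PP2A and the activators of PLK1, all tested, 4 rose and 2 fell from MII to L1C (56.2% of all genes changed), and 5 rose and 5 fell from L1C to L2C (82.9% of all genes). *Ensa*, an inhibitor of PP2A, rose by 1.72 (SE 0.13, adjusted p = 1.29e-07) from MII to L1C, while the scaffold subunit *Ppp2r1a* fell by 1.53 (SE 0.15, adjusted p = 1.49e-06). The catalytic subunit *Ppp2ca* was higher in IP at L1C (1.62, SE 0.21) and L2C (2.05, SE 0.20), and the scaffold *Ppp2r1b* was lower at MII (-1.64, SE 0.11), L1C (-1.38, SE 0.11) and L2C (-0.89, SE 0.11). In the complete KD files 6 were higher and 2 lower, where 66.8% of all genes were called (30.5% higher, 36.4% lower), with *Arpp19* (0.99, SE 0.09, adjusted p = 1.37e-07) and *Ppp2r2a* (0.76, SE 0.10, adjusted p = 8.27e-06) both higher.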

How the data were processed

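SLIM-seq libraries of 9 inputs and 9 IPs and 6 libraries of the KD experiment were used, in groups of 3 given by the labels. For SLIM-seq, the authors deposited estimated counts and TPM per gene from kallisto, with the whole gene span, introns included, as the target (GRCm38). The deposited TPM was divided by the length of that span and served only for ranks. For the KD experiment, the authors deposited counts of read pairs on exons from featureCounts 2.0.1 (Ensembl release 99, unstranded, unique alignments), and the submitters' notes further name Trimmomatic and HISAT2. The labels name a stranded total RNA kit beside polyA RNA as the molecule, and the published methods name a modified Smart-seq2 with oligo-dT, so which RNA classes entered the libraries is not settled here. The file of KD replicate 3 and the merged table end on chromosome 7, and the last cut-off row of that file was dropped.

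Totals were 11107421 to 39739950 for SLIM-seq, 3276715 to 5463868 in the merged table and 8696476 to 14500548 in the 5 complete files. Within groups, counts of any pair of libraries differed by more than sampling noise (chi-square per degree of freedom of at least 2.77).

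Estimated counts were rounded. Tests were edgeR 4.0.16 quasi-likelihood fits (R 4.3.3) with TMM factors and filterByExpr, on 9 inputs for RNA, on all 18 SLIM-seq libraries for IP and its change between stages, and on the KD tables, with BH over all genes tested and calls at an adjusted p under 0.05. The SE is the log2 change over the square root of F. An interval of 95% takes this SE with the normal quantile, so it is somewhat narrower than the F test would give. Levels are CPM with TMM factors over the 18 libraries, so that a fold from a fit on inputs differs from a ratio of CPM. From MII to L2C, the fitted fold of *Cdk1* was 183, with means of 2.80 and 408 CPM. That of *Mos* was 34.4, with means of 170 and 3.91 CPM. Alternatives were DESeq2 1.42.0, library size alone, no filter, a replicate block, only the stages compared, protein-coding genes only, pseudogene counts added, a simpler form of the published call rules on the edgeR values (the study used DESeq2 and further conditions), complete libraries only and each library left out. A fit with 2 replicates a stage was chosen after seeing the data. Its set is listed in a published sentence that follows the proteomics deposit and names no assay, so it is not taken as a quality call on the SLIM-seq libraries. The scripts were tested on simulated data. Same-numbered libraries did not deviate together (no set of same-numbered pairs with every correlation above 0.1), so numbers were not used as pairs. With input 1 set beside IP 2, 2 beside 3 and 3 beside 1, correlations were 0.13 to 0.36 at MII. They were 0.15 to 0.53 at L1C and -0.0090 to 0.093 at L2C. Whether such libraries share a batch was not tested, and the replicate block joined same-numbered libraries.

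The named genes are the 10 members, *Ythdc1*, near-copies with shared 31-base words, the 2 genes with the smallest P in each comparison of each pathway list (of which the text gives a selection) and the 3 nearest profiles of *Mos*, *Wee2* and *Cdk1*. *Gm44985* and *Exosc9* are named for their overlap. Members and lists were chosen with earlier results of these data known. Promoters are from RefSeq (GRCm38.p6), mRNAs from GENCODE M21 (GRCm38). Figures were drawn with matplotlib 3.10.9.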

Additional observations from a re-analysis of the deposited data

Results flagged for a closer look

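For 8 changes of the IP-to-input ratio between stages, the test of the difference between stages itself passed an adjusted p under 0.05 (edgeR quasi-likelihood test). From MII to L1C the ratio of *Fbxo43* rose by 0.52 on the log2 scale, where 7.33% of all genes changed. This call was lost for 11 of the 18 libraries when left out. Those 11 were all MII or L1C libraries, the ones that this change compares. From L1C to L2C (9.47% of all genes) the ratio of *Mos* changed by -1.36 and that of *Plk1* by -0.76, the latter call lost for 6 of the 18 libraries. From MII to L2C (20.3% of all genes) it changed by -0.84 for *Mos*, 0.87 for *Fbxo43*, 0.64 for *Wee2*, 0.80 for *Ccna2* and -0.75 for *Plk1*. The *Mos* call was lost for 2 of the 18 libraries. With 2 replicates a stage, the calls of *Fbxo43* from MII to L1C, *Plk1* from L1C to L2C and *Ccna2* and *Wee2* from MII to L2C were lost. Single outlying libraries were not tested for, since each group holds 3 libraries and the rule used here takes groups of at least 4.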

How the results depend on the processing

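Of 805 values of single genes under the alternatives other than leaving out 1 library, 727 kept their direction and their side of the threshold, 14 passed it only there, 37 no longer did, and 27 changed sign. With 1 library left out, 1307 of 1405 were kept, 6 passed only there, 54 no longer did and 38 changed sign. No value that changed sign was called. Some of the 805 outcomes were fixed by the setting. Adding pseudogene counts altered the counts of *Ccnb1* and *Plk1* only, while all 90 values of that setting entered as kept. In IP, the simpler form of the published rule takes only higher genes, so every lower call was lost under it by definition. The tally is therefore no measure of robustness. The numbers of genes called at MII (7), L1C (5) and L2C (5) in IP became 1, 2 and 2 under the simpler form of the published rule, which takes only higher genes, and 8 at L2C with library size alone. For the change of the IP ratio from MII to L1C the count of 1 became 2 with DESeq2, 2 with library size alone, and 0 with no filter, with the replicate block and with 2 replicates a stage (chosen after seeing the data), and from L1C to L2C the count of 2 became 1 with the replicate block and 1 with 2 replicates a stage, and 3 with DESeq2 and with protein-coding genes only, where *Cdc25b* passed. For genes beyond the merged table the count of 3 in KD became 0 under the published thresholds. Leaving out 1 library gave 3 to 5 genes in IP at L1C, 0 to 1 for the change from MII to L1C and 1 to 2 from L1C to L2C. Where a KD library of the complete files is left out, the lone KD library is assumed to vary like the others. The cause of these shifts was not tested.

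Changes of sign with library size alone were 0.031 (*Ccnb3*) and 0.13 (*Mos*) in IP at MII, 0.21 (*Ccna2*), 0.083 (*Wee2*) and 0.0096 (*Ccnb1*) at L1C, 0.090 (*Cdc25b*) at L2C, and -0.049 for the change of *Ccnb2* from L1C to L2C. For the change from MII to L1C, *Plk1* and *Ccnb2* were at -0.017 and -0.010 with DESeq2, at -0.015 and -0.014 with protein-coding genes only and at -0.078 and -0.074 with only the stages compared. For the change of *Ccnb2* from L1C to L2C the values were -0.053 (DESeq2), -0.038 (no filter), -0.0019 (replicate block) and -0.19 (only the stages compared, where *Cdk1* was at -0.082), and from MII to L2C -0.063, -0.033 (no filter) and -0.16 (only the stages compared). With 1 library left out, *Ccnb2* ranged from -0.016 to 0.098 in IP at MII, -0.054 to 0.16 at L1C and -0.045 to 0.11 at L2C, and its change from -0.072 to 0.13, -0.13 to 0.076 and -0.075 to 0.081. At L2C, *Wee2* ranged from -0.0023 to 0.14, *Ccnb1* from -0.048 to 0.19 and *Cdc25b* from -0.38 to 0.044, and the change of *Plk1* from MII to L1C from -0.14 to 0.085.

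With 2 replicates a stage, *Ccnb2* was at -0.068 in IP at L2C, and changes were 0.050 (*Cdc25b*) and -0.12 (*Plk1*) from MII to L1C, -0.034 (*Cdk1*) and -0.27 (*Ccnb2*) from L1C to L2C and -0.17 (*Ccnb2*) from MII to L2C. Over all genes, this fit gave 584 calls in place of 1609, 684 in place of 2079 and 2816 in place of 4452 for these 3 changes, and counts of the pathway lists fell by at most 2 in either direction.

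Over all genes, the replicate block gave 1067 calls in place of 1609 for the change from MII to L1C and 1168 in place of 2079 from L1C to L2C, the latter being 1367 without L1C IP replicate 3 and 1269 without L2C IP replicate 3. The published thresholds on the edgeR values gave 4223 in place of 8476 at MII, 4083 in place of 7451 at L1C, 5250 in place of 9664 at L2C, and in KD 2764 in place of 5269 and 6639 in place of 11413. With the replicate block the adjusted p was 0.051 for *Mos* in IP at L1C, 0.075 for *Fbxo43* (change from MII to L1C) and 0.050 for *Plk1* (change from L1C to L2C), and no other call of the 10 genes changed. At *Cdc25b* and *Mos*, counts as low as 7 and 30 in a library limit the precision.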
